A study of Mus musculus with 4 samples.

Results

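The genes described here are 41 mouse genes that encode parts of the sperm tail: proteins of the axoneme, of the fibrous sheath and outer dense fibres around it, and a few proteins needed to build the tail. They were chosen by name from the gene list of the day 35 Znhit1 knockout library, where 39 were found under their own symbol and 2, Dnai1 and Dnai2, by gene identifier under the older symbols Dnaic1 and Dnaic2, among 32285 listed genes. The rule for the choice is by name alone and uses no measured value, but it was written with earlier results of these data known. The study profiled testis cells of control mice and of Znhit1 knockout mice at days 16 and 35, with 1 library for each of the 4 groups, made with a droplet 3' kit that counts RNA molecules by unique molecular identifiers (UMIs). Only the counts of the day 35 knockout library were used, and those of the other 3 were not analysed here, so the genes are followed across germ cell stages within knockout testis and not between genotypes. The labels read as P16 and P35 were taken as postnatal days. The sources used here do not give the strain, the design of the knockout allele, any Cre driver or the number of animals behind each library.

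The axoneme is a ring of doublet microtubules around a central pair. Outer and inner dynein arms on each doublet slide it against its neighbour, radial spokes carry signals between the central pair and the arms, and the nexin-dynein regulatory complex holds neighbouring doublets together. Tektins and other inner proteins line the doublet wall, and in sperm the axoneme is wrapped by outer dense fibres and, further along the tail, by the fibrous sheath. Mouse germ cells are known to begin transcribing many axonemal genes during meiosis, well before a flagellum is built in spermatids.

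The library held 15306 barcodes, of which 7856 cells were used, 4395 of them germ cell-like, with 32285 genes listed. Cells were clustered without the 41 genes and named from marker genes, which gave 9 germ stages of 148 to 849 cells each, with median depths between 3691 and 20069.5 UMIs per cell. In order, these were undifferentiated spermatogonium-like cells, 2 clusters of differentiating spermatogonium-like cells (Crabp1 high, then Esx1 high), 2 of early prophase-like cells (Stra8 high, then Dmc1 high), 2 of zygotene-to-pachytene transition-like cells (Zfy2 high, then a cluster with little X-linked RNA), earlier pachytene-like cells, and the most advanced pachytene-like cells. The X-linked share of UMIs was 2.11% to 2.61% through the Zfy2-high stage and 0.99%, 0.45% and 0.85% in the 3 stages after it. Stages were put in order by their marker lists. Within a list, differentiating clusters were ordered by Crabp1, early prophase ones by Stra8 and transition ones by X-linked share. The fall in X-linked share between the 2 transition stages is therefore set by this order. The last stage had 160 cells and 4994 CPM (UMIs of a gene per 1000000 UMIs of the cell class) of Ldhc, a lactate dehydrogenase of pachytene and later germ cells, against 1179 CPM in the stage before. Spermatid markers were low in all stages but highest in this one. The 11 round spermatid markers summed to 7.38 to 38.3 CPM before pachytene, 82.9 CPM in earlier pachytene and 162 CPM in the last stage, where 8 were detected and Tssk2, Spaca7 and Txndc8 were at 0. The 8 elongating spermatid markers summed to 2.08 to 7.46 CPM in the first 8 stages and 32.3 CPM in the last, with Prm2 and Prm3 at 0. The part of more advanced cells in the values of the last stage was not tested. When called doublets were kept, they made up 1.25% of this stage. Znhit1 itself had 80 UMIs over all germ cells, 2.49 CPM, which has no control value beside it here. With 1 library per group there is no test, and every interval below covers counting error only, not differences between animals. In what follows, higher, lower, rose and fell refer to these cells only, and genes are counted as higher or lower from a 2-fold ratio.

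Summed over all 41 genes, the sperm tail RNAs made up 466 CPM in undifferentiated spermatogonia, 478 and 584 CPM in the differentiating stages, and 485 and 649 CPM in early prophase. The sum then went to 1559 CPM in Zfy2-high cells, 5449 CPM in the transition stage with little X-linked RNA, 10928 CPM in earlier pachytene cells and 14653 CPM (95% Poisson interval 14531 to 14776) in the most advanced pachytene cells. Against spermatogonia as a whole, with 494 CPM, the last stage was 29.7-fold higher (28.9 to 30.5). Macrophage-like cells, which build no flagellum, held 448 CPM of the same genes (414 to 485) and Leydig-like cells 288 CPM, as a measure of free RNA in the droplets. The sum in undifferentiated spermatogonia (445 to 486) lay within the macrophage interval. Other somatic cells held more, with 578 CPM in stromal, 725 CPM in endothelial and 1402 CPM in Sertoli-like cells. In CPM, no stage up to Dmc1-high early prophase (649 CPM) therefore stood above the somatic range. Per cell, undifferentiated spermatogonia (median depth 12212 UMIs) held 6.19 UMIs of the 41 genes and macrophages (median 3043.5) held 1.39. Whether free RNA grows with the depth of a cell was not tested, so equal CPM does not settle how much of this RNA is free. After thinning each cell to 2000 UMIs, the median cell of every spermatogonial and early prophase stage had RNA of 1 of the 41 genes. The median macrophage also had 1, and the median Leydig-like cell had 0. In the 4 germ stages after early prophase the median was 2, 4, 7 and 8 genes, and the highest single cell had 13.

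**Figure D1:**
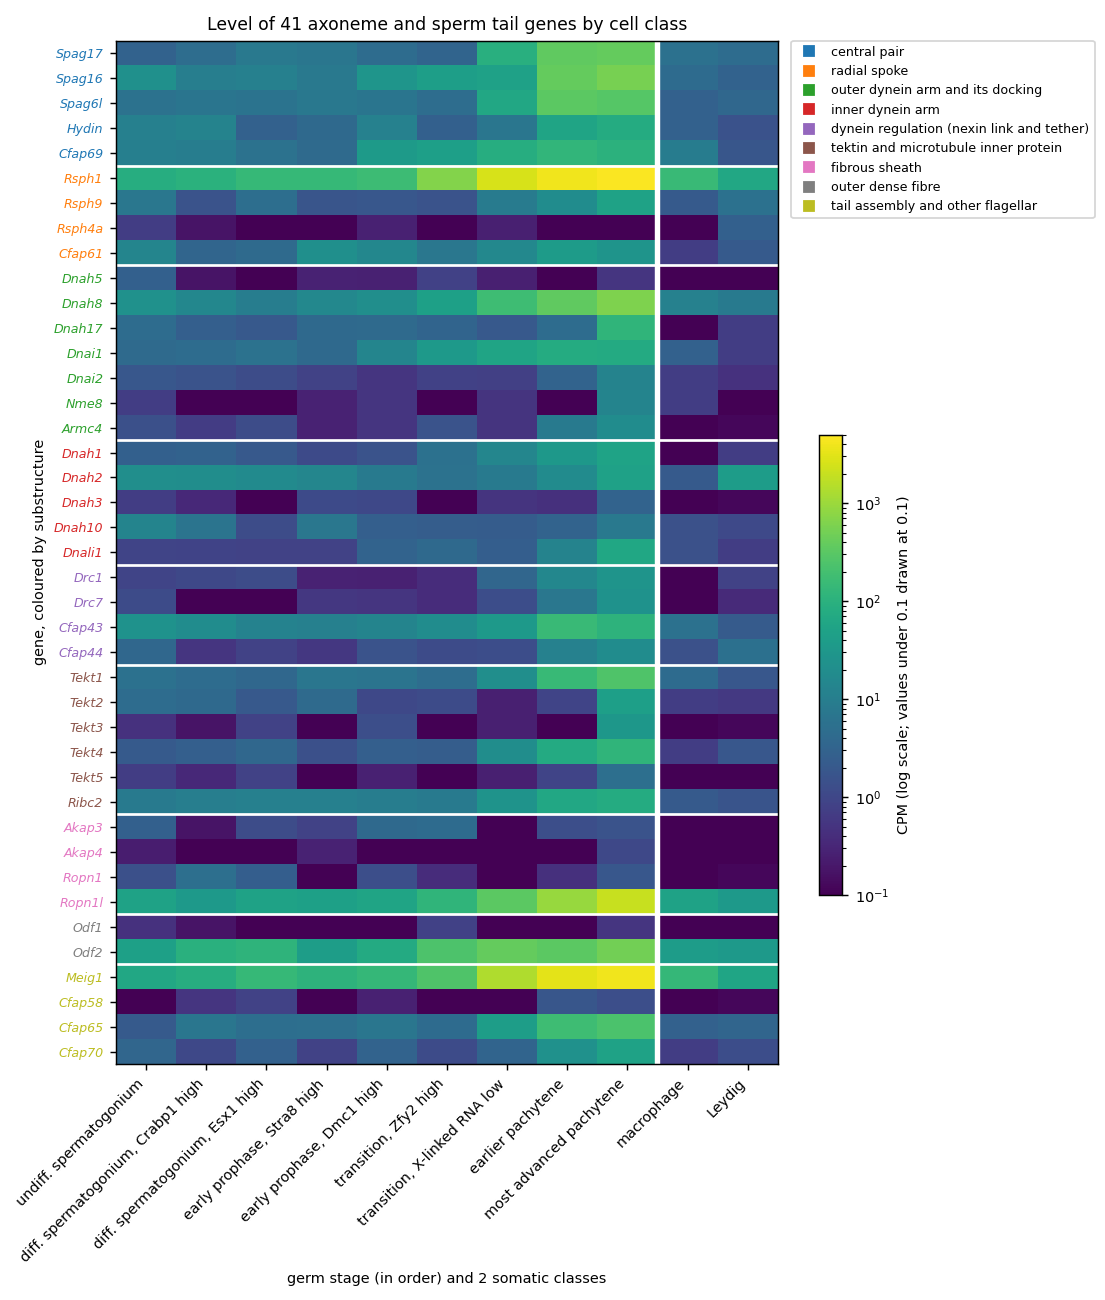
Level of each of the 41 genes (rows, coloured by substructure) in the 9 germ stages in order and in macrophage-like and Leydig-like cells (columns), as CPM on a log colour scale with values under 0.1 drawn at 0.1. Most rows are bright only in the pachytene columns, Rsph1 and Meig1 are brightest, and Rsph4a, Dnah5, Akap3, Akap4, Ropn1, Odf1 and Cfap58 stay dark throughout.

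Of the 41 genes, 35 had at least 20 UMIs over spermatogonia and the most advanced cells together, the minimum set for a ratio. Among these 35, 32 were at least 2-fold higher in the most advanced pachytene cells, none was 2-fold lower, and the median log2 ratio was 4.29. Over all 15560 genes that met the same minimum, 19.8% were at least 2-fold higher, 44.3% were lower and the median log2 ratio was -0.75. The 3 measured genes that were not 2-fold higher were Dnah10, Akap3 and Ropn1. Nme8, Armc4, Dnali1, Drc1, Drc7, Tekt3 and Tekt5 had under 20 UMIs in spermatogonia, so they met the minimum only through the most advanced cells. The minimum left Rsph4a, Dnah5, Dnah3, Akap4, Odf1 and Cfap58 out of these counts, among them Dnah3 with 5 UMIs in spermatogonia and 12 in the most advanced cells and Dnah5 with 13 and 2.

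The promoters of 35 of the 41 genes were in the RefSeq promoter table (build GRCm38.p6), and were searched over the 250 bases before the start site for short motifs linked to ciliary and meiotic transcription. The X-box, the inverted repeat bound by RFX factors, was searched on both strands with both arms complete and a spacer of up to 3 bases. It was present in 7 of the 35 promoters (20%), those of Spag16, Hydin, Dnai1, Dnai2, Cfap44, Tekt2 and Cfap58, and in 1.32% of all 27025 promoters of the same length. 5 of the X-box promoters are printed here because these genes start at different stages, with the Meig1 promoter, of a highly expressed gene without the motif, beside them. Each runs 5′ to 3′ on the gene's strand and capitals mark the X-box.
Spag16, chr1:69826720-69826969, plus strand: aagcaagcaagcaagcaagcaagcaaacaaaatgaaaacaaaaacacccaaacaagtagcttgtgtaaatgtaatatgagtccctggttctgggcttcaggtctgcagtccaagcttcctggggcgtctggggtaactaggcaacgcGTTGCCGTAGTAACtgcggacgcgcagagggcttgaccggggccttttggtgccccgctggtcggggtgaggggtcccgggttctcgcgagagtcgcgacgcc
Hydin, chr8:110266727-110266976, plus strand: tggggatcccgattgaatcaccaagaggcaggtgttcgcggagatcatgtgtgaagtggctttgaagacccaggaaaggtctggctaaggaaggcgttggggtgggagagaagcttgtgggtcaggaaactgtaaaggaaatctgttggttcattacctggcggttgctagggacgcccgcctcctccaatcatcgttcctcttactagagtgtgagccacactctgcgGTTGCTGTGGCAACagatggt
Dnai1, chr4:41569544-41569793, plus strand: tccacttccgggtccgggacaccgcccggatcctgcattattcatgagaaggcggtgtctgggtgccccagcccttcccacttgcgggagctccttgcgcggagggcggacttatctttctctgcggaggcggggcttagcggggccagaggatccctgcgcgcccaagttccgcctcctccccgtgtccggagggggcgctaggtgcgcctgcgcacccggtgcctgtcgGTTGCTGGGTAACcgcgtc
Dnai2, chr11:114727169-114727418, plus strand: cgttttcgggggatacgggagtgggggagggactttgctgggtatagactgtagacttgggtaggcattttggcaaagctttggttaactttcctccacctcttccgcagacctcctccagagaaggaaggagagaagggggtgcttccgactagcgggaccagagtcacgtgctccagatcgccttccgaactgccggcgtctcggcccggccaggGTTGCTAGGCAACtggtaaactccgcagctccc
Tekt2, chr4:126325689-126325938, minus strand: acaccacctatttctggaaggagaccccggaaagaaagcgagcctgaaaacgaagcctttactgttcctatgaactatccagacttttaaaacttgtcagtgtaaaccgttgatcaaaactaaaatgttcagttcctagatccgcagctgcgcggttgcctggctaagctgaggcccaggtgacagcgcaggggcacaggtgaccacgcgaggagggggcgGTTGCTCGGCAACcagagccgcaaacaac
Meig1, chr2:3422649-3422898, minus strand: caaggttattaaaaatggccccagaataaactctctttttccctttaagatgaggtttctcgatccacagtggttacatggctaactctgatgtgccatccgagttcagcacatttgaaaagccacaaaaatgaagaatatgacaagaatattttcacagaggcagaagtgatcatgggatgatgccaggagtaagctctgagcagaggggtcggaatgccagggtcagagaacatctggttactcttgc

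In these sequences the X-box ended 89 bases before the start in Spag16 and 6, 7, 16 and 20 bases before it in Dnai1, Hydin, Tekt2 and Dnai2. The shorter motif GTTGCC, which can lie inside an X-box, was in 11 of the 35 promoters (31.4%) and in 10.5% of all promoters. GCAGTT, which is part of the motif of MYB factors such as MYBL1 of meiotic cells, was in 5 of 35 (14.3%) and in 11.1% of all. The cyclic AMP response element TGACGTCA was in 1 of 35, that of Spag6l, and in 1.60% of all. All were searched on both strands, and a match describes the letters only. By the stage at which a gene reached 50% of its highest level, the X-box was in 4 of 21 promoters of genes that did so before the most advanced stage and in 2 of 12 of those that did so in it.

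The 5 central pair genes rose at different stages, 4 of them by at least 2-fold into earlier pachytene, and none changed 2-fold after it. Spag6l, Spag16 and Spag17 encode proteins of the central apparatus, Hydin a very large protein of its projections, and Cfap69 another of its components. Spag17 (chr3:99885406-100143322, plus strand) stood at 3.03 to 7.97 CPM in the first 6 stages, then at 92.1, 361 and 395 CPM. Macrophages had 5.76 CPM, so Spag17 was near the macrophage level until the stage with little X-linked RNA and was far above it from there on. Spag16 (chr1:69826970-70725132, plus strand) was at 7.95 to 27.8 CPM up to early prophase, at 43.7 and 49.5 CPM in the transition stages, and at 382 and 547 CPM in pachytene, so its jump came 1 stage later. Spag6l was at 4.81 to 7.67 CPM in the first 6 stages and then at 66.8, 328 and 287 CPM. Hydin had 54.7 and 77.6 CPM in the pachytene stages and at most 12.8 CPM before them. Cfap69 was the earliest of the group, with 35.8 CPM in Dmc1-high cells against 4.26 CPM in Stra8-high cells, and then 45.3, 83.5, 126 and 103 CPM. The ratio of the most advanced cells to spermatogonia was 81.9 for Spag17 (63.3 to 108), the largest of the group, and 7.48 for Hydin (6.06 to 9.28), the smallest. From earlier to most advanced pachytene, none of the 5 changed 2-fold, with ratios from 0.814 for Cfap69 to 1.43 for Spag16.

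Radial spoke genes held the most abundant RNA of all 41. Each UMI stands for 1 captured molecule whatever the length of the transcript, so levels were not divided by length, but capture can differ between genes. Rsph1 (chr17:31255019-31277383, minus strand), a spoke head protein, was at 85.0, 101, 143, 138 and 169 CPM up to early prophase, where macrophages had 154 CPM. It then stood at 677 CPM in Zfy2-high cells, 2623 CPM in the next stage, and 3989 and 4691 CPM in pachytene. Rsph1 was thus above the macrophage level in Zfy2-high cells, whose X-linked share was 2.61%. The last stage had 111 Rsph1 UMIs per cell and a ratio of 45.3 over spermatogonia (42.9 to 48.0). Rsph9, another spoke head protein, was far lower and later, at 1.56 to 9.14 CPM up to the transition and 19.6 and 50.6 CPM in pachytene. Rsph4a, a spoke head protein of motile cilia, had 6 UMIs in all germ cells and 0 in both pachytene stages. In the most advanced cells, 3 counts would be 0.795 CPM. Cfap61, found at the base of radial spokes, was at 13.7, 3.47, 4.19, 21.6, 15.1, 7.22, 15.5, 38.3 and 27.0 CPM over the 9 stages, with no single rise, and its ratio of the last stage to spermatogonia was 3.78 (2.81 to 5.08).

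**Figure D2:**
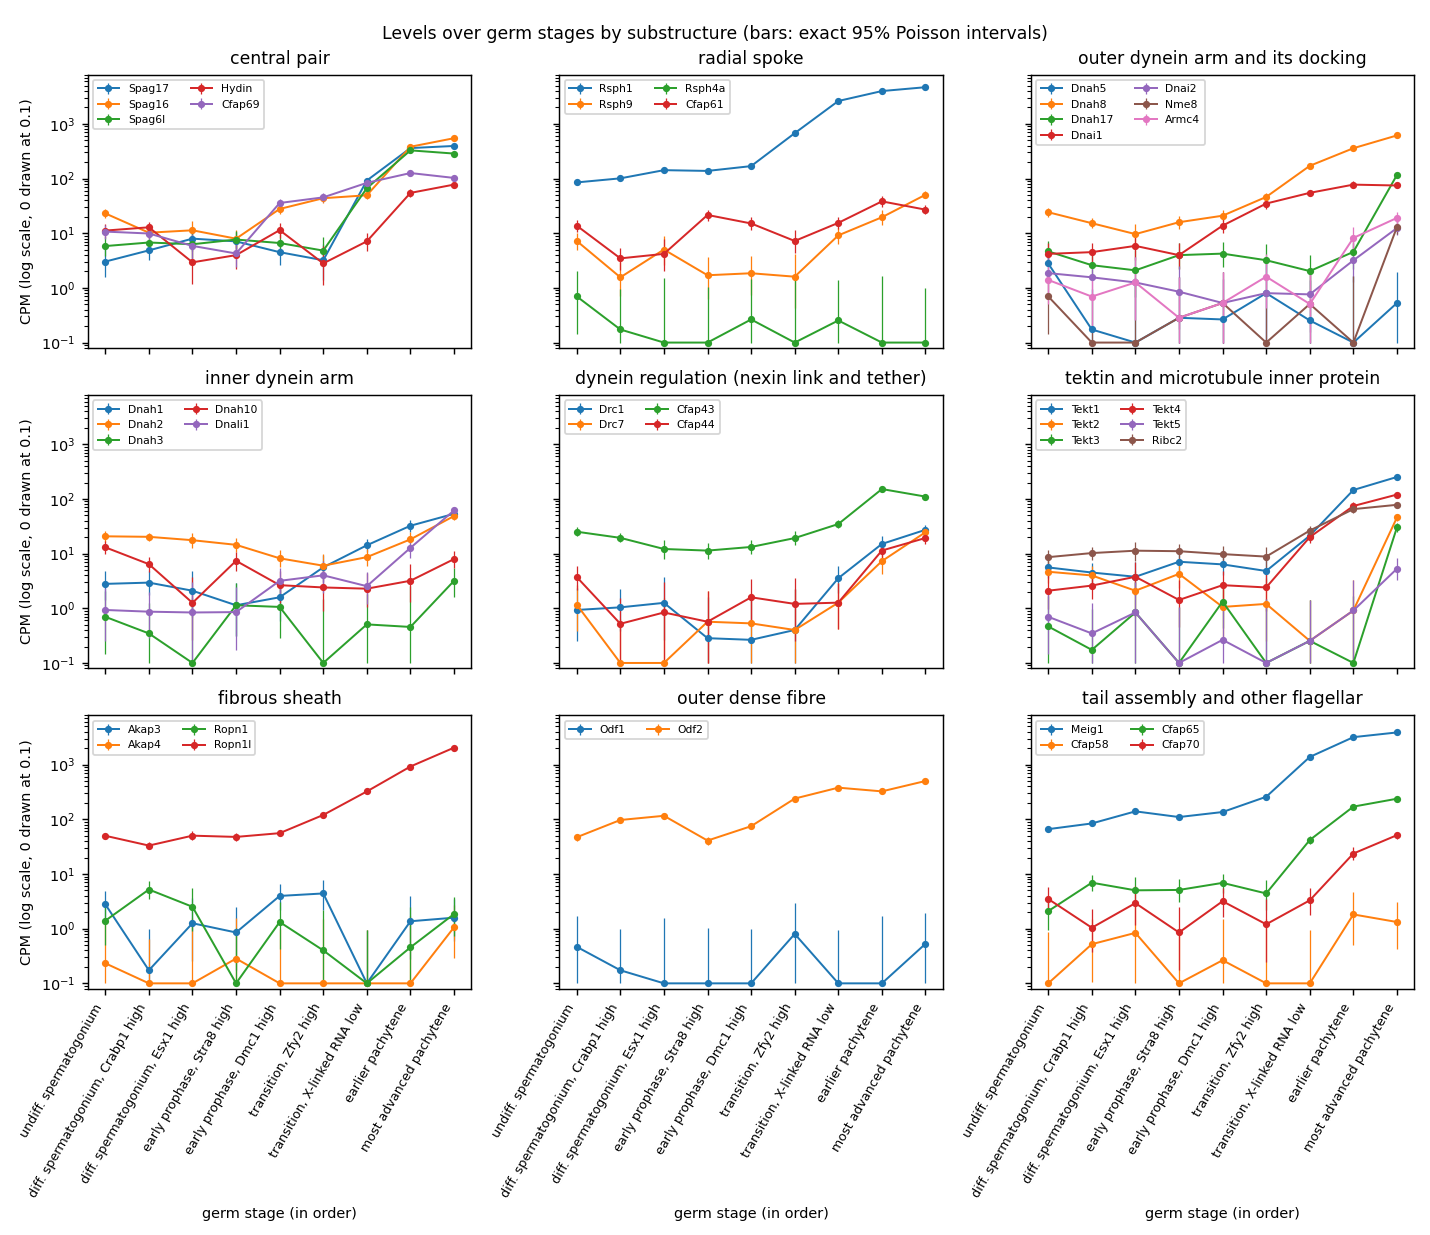
Level of each gene in CPM, on a log axis with 0 drawn at 0.1, in the 9 germ stages in order, with 1 panel for each substructure and bars for the exact 95% Poisson interval. Central pair lines flatten between the last 2 stages, while Dnah17, Nme8, Tekt2 and Tekt3 stay low until the last stage.

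Outer dynein arm genes fell into 2 sets by their timing. Dnah8 and Dnah17 encode outer arm heavy chains of sperm, and both ended high, but by different routes. Dnah8 (chr17:30624354-30877365, plus strand) was at 9.64 to 24.2 CPM up to early prophase and then at 46.1, 171, 359 and 616 CPM. Dnah17 (chr11:118021723-118130634, minus strand) was at 4.66, 2.60, 2.10, 3.98, 4.24, 3.21, 2.03 and 4.56 CPM in the first 8 stages and at 117 CPM in the last (106 to 128). That is 10 UMIs in 148 earlier pachytene cells and 440 UMIs in 160 most advanced ones, a ratio of 25.6 (13.8 to 53.7). Both intermediate chain genes rose as well, Dnai1 early and Dnai2 late. Dnai1 was at 3.98 to 5.87 CPM in the first 4 stages and then at 13.8, 34.9, 54.8, 77.5 and 74.7 CPM, while Dnai2 was below 2 CPM until pachytene and then at 3.19 and 12.4 CPM. The late set also held Nme8, a thioredoxin-domain protein of the outer arm, and Armc4, a docking protein. Nme8 had 8 UMIs in the first 7 stages together, 0 in earlier pachytene and 49 in the most advanced cells, 13.0 CPM. That is 9.49-fold the 3-count limit in the stage before, and the lower end of the interval of this ratio was 7.43. Over spermatogonia, Nme8 had the largest ratio of the group, 53.8 (17.4 to 270), and Dnai2 the smallest, 7.74 (4.50 to 13.8). Without thinning, Nme8 was seen in 9.375% and Dnai2 in 6.875% of the 160 most advanced cells. Armc4 was seen in 30% of them and Dnah17 in 71.25%. The rise of Nme8 and Dnai2 was thus carried by a small part of the stage. The intervals treat each UMI as independent and do not cover UMIs clumped in few cells. Armc4 was at most 1.60 CPM up to the transition and then at 8.20 and 19.1 CPM. Dnah5, the outer arm heavy chain of airway cilia, was at 2.80 CPM in undifferentiated spermatogonia and at most 0.802 CPM in every later stage, 20 UMIs in all, with 2 in the most advanced cells.

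Inner arm genes were low throughout, and their sum was 175 CPM in the last stage against 852 CPM for the outer arm genes. Dnah1, an inner arm heavy chain of sperm, was at 1.14 to 2.95 CPM until prophase and then at 5.61, 14.2, 32.4 and 53.5 CPM, a steady climb. Dnali1 (chr4:125055338-125065703, minus strand), an inner arm light intermediate chain, was at most 4.01 CPM until pachytene and then at 12.8 and 61.7 CPM, a 4.84-fold step between the pachytene stages (3.26 to 7.44) and the largest ratio of the group over spermatogonia, 69.8 (38.3 to 142). Dnah2 went down before it went up, at 20.7, 20.3, 17.6, 14.5, 8.21, 6.02, 8.63, 18.2 and 48.7 CPM. Leydig-like cells held 39.1 CPM of Dnah2, close to its highest germ stage, so its RNA was not limited to germ cells here. Its ratio of the last stage to spermatogonia, 2.44 (2.01 to 2.97), was the smallest of the 32 counted as 2-fold higher, and was 1.91 with coarser clusters and 1.93 with 2000 variable genes. Dnah10 was highest at 13.0 CPM in undifferentiated spermatogonia and at 7.95 CPM in the last stage, and Dnah3 had 12 UMIs there, 3.18 CPM (1.64 to 5.55).

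The genes that link or tether dyneins all rose by the earlier pachytene stage. Drc1 and Drc7, of the nexin-dynein regulatory complex, were at most 3.55 CPM in the first 7 stages and then at 7.29 and 24.6 CPM for Drc7, while Drc1 had 33 UMIs in earlier pachytene and 103 in the most advanced cells, 27.3 CPM. Drc7 had the largest ratio of the group, 61.3 over spermatogonia (25.3 to 193), from 5 UMIs there. Cfap43 and Cfap44, which tether inner arm dyneins, differed in level: Cfap43 was at 11.4 to 34.8 CPM before pachytene and at 152 and 110 CPM in it, and Cfap44 was at most 3.73 CPM before and 11.4 and 19.3 CPM in it. Cfap43 had the smallest ratio of the group, 5.52 (4.71 to 6.48). Cfap43 overlaps Itprip on the same strand and Drc1 overlaps Gm43755, so some of their UMIs may belong to the neighbour.

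The tektins split as the outer arm did. Tekt1 (chr11:72344722-72362442, minus strand) was at 5.59 CPM in undifferentiated spermatogonia and 4.81 CPM in Zfy2-high cells and then at 21.3, 146 and 252 CPM, the highest level of the group. Tekt4 was at 1.42 to 3.77 CPM and then at 20.1, 74.3 and 120 CPM. Ribc2, a protein inside the doublet wall, was at 8.62 to 11.3 CPM and then at 26.4, 65.2 and 78.1 CPM, with the smallest ratio of the group, 7.90 (6.38 to 9.84). These 3 rose together from the stage with little X-linked RNA. Tekt2 (chr4:126322121-126325688, minus strand) instead stood at 4.66, 3.99, 2.10, 4.26, 1.06, 1.20, 0.254 and 0.911 CPM and then at 45.8 CPM in the most advanced cells, from 2 UMIs to 173 between the pachytene stages, a ratio of 50.3 (13.7 to 418). Tekt3 (chr11:63061654-63094964, plus strand) had 0 UMIs in earlier pachytene and 114 in the most advanced cells, 30.2 CPM. That is 22.1-fold the limit of 3 counts, and the lower end of the interval of this ratio was 17.7. The Tekt3 ratio over spermatogonia, 75.1 (31.3 to 236), was the largest of the group. Tekt5 had 2 and 20 UMIs in the pachytene stages, 5.30 CPM in the last. Without thinning, 36.25% of the most advanced cells had RNA of Tekt2, 21.25% of Tekt3 and 9.375% of Tekt5, against 89.375% for Tekt1.

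The sheath and fibre genes did not move as a set. Ropn1l (chr15:31441211-31453737, minus strand), a small protein that binds the anchoring proteins of the sheath, was at 33.1 to 55.9 CPM until prophase, where macrophages had 50.4 CPM, and then at 120, 324, 926 and 2048 CPM (2002 to 2094), 48.4-fold over spermatogonia (44.3 to 53.0). Its relative Ropn1 was highest at 5.20 CPM in Crabp1-high spermatogonia and at 1.85 CPM in the last stage, a ratio of 0.55 over spermatogonia (0.21 to 1.23). Akap3 and Akap4, the sheath's main scaffold proteins, stayed near 0. Akap3 was at most 4.41 CPM in any stage and 1.59 CPM in the last, and Akap4, the only X-linked gene of the 41, had 6 UMIs in all germ cells, 4 of them in the last stage. Odf1, a main protein of the outer dense fibres, had 7 UMIs in all germ cells. Odf2, a fibre protein that is also a part of centrioles in many cell types, was at 47.1, 97.3, 116, 40.9, 75.0, 240, 380, 325 and 503 CPM, with 6.02-fold more in the last stage than in spermatogonia (5.58 to 6.50).

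The genes grouped as tail assembly included the second most abundant of all 41. Meig1 (chr2:3409043-3422648, minus strand), a protein needed to carry cargo for tail building in spermatids, was at 66.2, 84.1, 140, 110 and 136 CPM until prophase, where macrophages had 135 CPM, and then at 259, 1385, 3188 and 3887 CPM. It alone gave 26.5% of the UMIs of the 41 genes in the last stage, and without it the sum there was 10766 CPM. Cfap65, a flagellar protein, was at 2.10 to 6.94 CPM in the first 6 stages and then at 41.9, 171 and 238 CPM, with the largest ratio of the group over spermatogonia, 48.6 (37.5 to 64.1). Cfap70, a protein linked to the outer arms, had the smallest, 22.8 (15.3 to 35.3), and was at 23.7 and 51.4 CPM in the pachytene stages. Cfap58 had 15 UMIs in all germ cells.

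Timing was then compared across the substructures by the stage at which each gene first reached 50% of its highest level over the 9 stages. Of the 37 genes with at least 20 UMIs in germ cells, 4 did so in the transition stage with little X-linked RNA: Cfap69, Rsph1, Dnai1 and Odf2. Another 14 did so in earlier pachytene: the other 4 central pair genes, Drc1, Cfap43, Cfap44, Dnah8, Dnah1, Tekt1, Tekt4, Ribc2, Meig1 and Cfap65. A further 14 did so only in the most advanced cells: Rsph9, Dnah17, Dnai2, Nme8, Armc4, Dnah2, Dnah3, Dnali1, Drc7, Tekt2, Tekt3, Tekt5, Ropn1l and Cfap70. Among these, Nme8, Dnah3, Tekt3 and Tekt5 met the minimum of 20 UMIs only with the UMIs of that stage. It held 49 of the 57 germ cell UMIs of Nme8 and 12 of 28 of Dnah3. For Tekt3 it held 114 of 125 and for Tekt5 20 of 31. The last 5 genes, Dnah5, Dnah10, Akap3, Ropn1 and Cfap61, did so before the transition. Over all 16966 genes with at least 20 UMIs in germ cells, 3.15%, 3.61% and 5.69% first reached that level in these 3 stages, and 83.8% did so before the transition. The highest level fell in the most advanced cells for 28 of the 37, against 15.4% of all genes. The number that reached 50% only in the last stage was 28 with coarser clusters and 26 with 2000 variable genes, where no earlier pachytene cluster stood apart. It was 5 with cells thinned to 2000 UMIs, where the same minimum applied to fewer UMIs.

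The steps between neighbouring stages were then compared. From Dmc1-high to Zfy2-high cells, 6 of 21 measured genes were at least 2-fold higher (10.5% of all genes), among them Rsph1, Odf2 and Dnah8. From Zfy2-high cells to the stage with little X-linked RNA, 14 of 21 were higher (7.96% of all genes), and from there to earlier pachytene, 22 of 26 (10.5% of all genes). Earlier pachytene against early prophase as a whole gave 25 of 30 higher (18.6% of all genes), with a median log2 ratio of 3.57 against -0.39 over all genes. Tekt2 alone was 2-fold lower in that comparison (33.7% of all genes were), with 19 and then 2 UMIs. Its ratio was 0.35 (0.04 to 1.45), an interval that includes no change. The minimum of 20 UMIs is over both stages together, so some genes in these counts met it only through the later stage. In early prophase Drc1 had 2 UMIs, Armc4 3, Drc7 4, Cfap44 8, Dnah1 10 and Rsph9 13. Dnali1, Tekt4 and Cfap70 had 15 each there. All of these are among the 25 counted as higher in earlier pachytene.

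Between the pachytene stages the counts differed by substructure, a difference that was not tested. Of the 33 genes measured in both, 14 were at least 2-fold higher in the most advanced cells and none was 2-fold lower, with a median log2 ratio of 0.78 (14.6% higher, 7.83% lower and a median of -0.06 over all genes). By substructure, 0 of 5 central pair genes, 1 of 3 radial spoke genes, 4 of 6 outer arm genes, 3 of 4 inner arm genes, 1 of 4 dynein link genes and 3 of 6 tektin group genes were higher. The outer arm genes were Dnah17, Nme8, Dnai2 and Armc4, with ratios for the last 2 of 3.90 (1.75 to 10.2) and 2.33 (1.37 to 4.14). Ropn1l was 2.21-fold higher (2.11 to 2.32) on far more UMIs, 2031 and 7732. Most of the largest ratios rested on few UMIs in the earlier cells. The minimum of 20 UMIs is over both stages together, so some genes met it only through the most advanced cells. In the earlier cells Dnah17 had 10 UMIs, Dnai2 7, Nme8 0, Armc4 18, Dnah10 7 and Drc7 16. Tekt2 had 2 there, Tekt3 0 and Tekt5 2. Every outer arm and tektin gene counted as higher is among these, so the counts by substructure rest largely on genes admitted this way. In cells thinned to 2000 UMIs only 19 genes met the minimum, and 3 were 2-fold higher, Dnah17, Ropn1l and Cfap65. Cfap65 was at 1.39 without thinning, and 1 measured gene was no longer 2-fold higher. Most of the 14 genes had too few UMIs for a thinned ratio, so thinning could not show whether the split by substructure held. With equal weight for each cell Dnai2, Ropn1l and Cfap70 came to 1.94, 1.99 and 1.93. The median depth was 12726.5 UMIs in the earlier cells and 20069.5 in the most advanced ones, and its part in these ratios was not tested beyond the thinning.

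**Figure D3:**
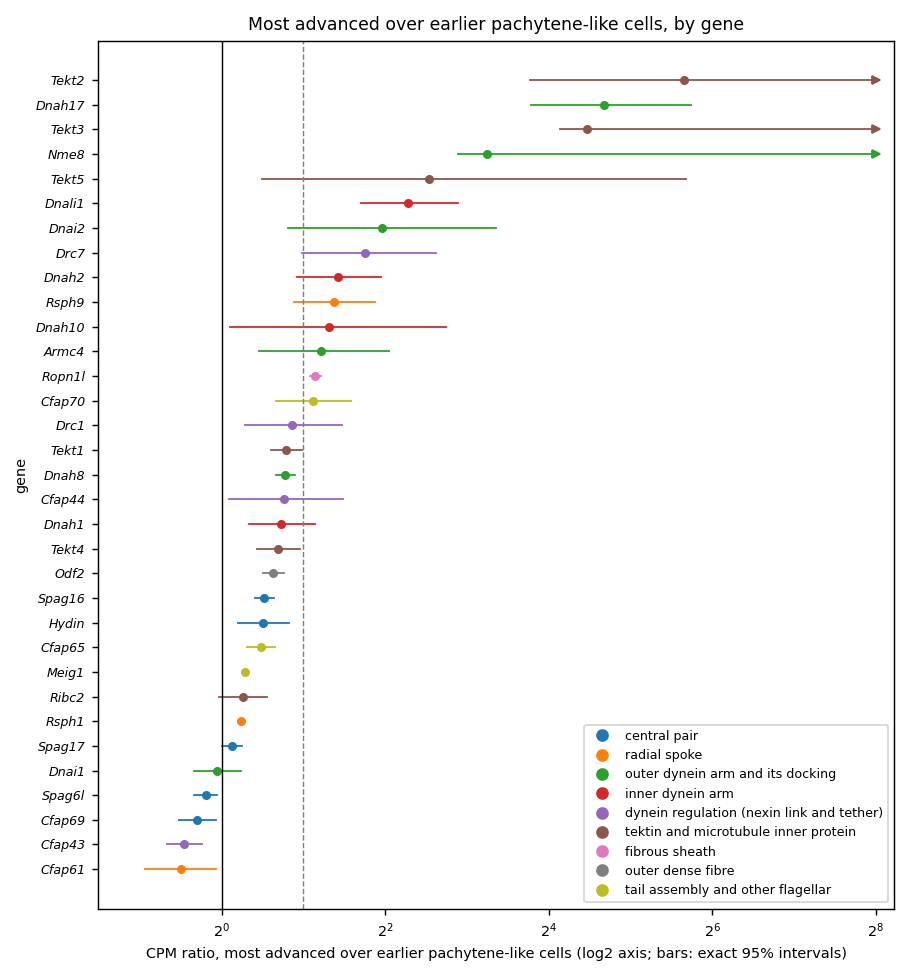
Ratio of the CPM in the most advanced to that in earlier pachytene-like cells for each of the 33 measured genes, sorted by ratio and coloured by substructure, on a log2 axis with lines at no change and at 2-fold and bars for exact 95% intervals of counting error. Points for Nme8 and Tekt3 are ratios to the 3-count limit and not lower bounds. Arrowheads mark intervals that run past the axis, and the 5 central pair genes all sit below 2-fold.

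The share of cells with RNA of a gene was set beside the levels. Each cell was thinned to 2000 UMIs, which left out 4 of 160 most advanced cells and none of the 148 earlier ones, but 122 of 579 Esx1-high cells and 102 of 446 macrophages, so those shares are of the deeper cells. Rsph1 was seen in 16.2% of undifferentiated spermatogonia and 28.6% of Dmc1-high cells (25.5% to 31.8%). Macrophages had 27.0% (22.4% to 32.1%, median depth 3043.5 UMIs before thinning), so neither thinned share stood above the macrophage interval. It was then seen in 66.6% of Zfy2-high cells, 97.5% of the next stage and 100% of both pachytene stages. Before thinning, the Rsph1 shares were 58.8%, 52.2% and 38.1% in undifferentiated spermatogonia, Dmc1-high cells and macrophages. Meig1 was seen in 35.9% of Zfy2-high cells and 85.9% of the next stage, against 21.8% of macrophages. Spag17 went from 0.7% of Zfy2-high cells to 14.8%, 46.6% and 42.3% in the last 3 stages. Odf2 was seen in 19.0% and 19.9% of the differentiating spermatogonia, above the 7.8% of macrophages, in 12.4% of Dmc1-high cells, and in 52.9%, 49.3% and 62.2% of the last 3 stages. Dnah17 was seen in 2.0% of earlier and 13.5% of the most advanced pachytene cells, and Tekt2 in 0.7% and 7.7%.

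**Figure D4:**
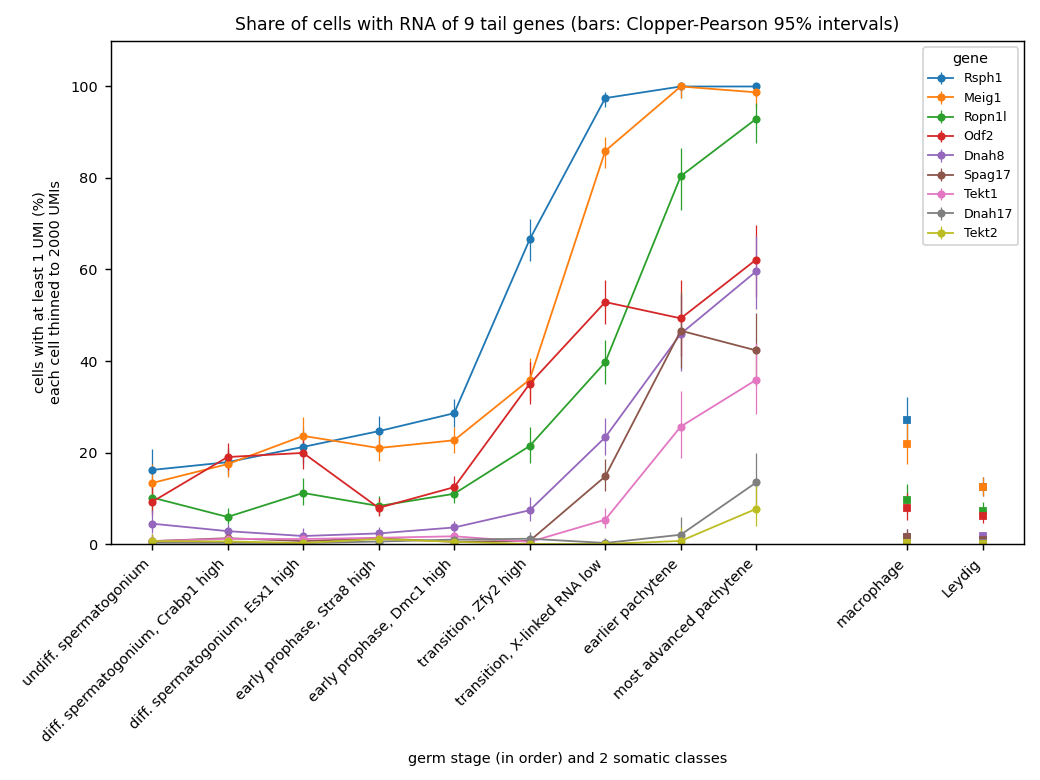
Share of cells, in percent, with at least 1 UMI of 9 of the genes in each germ stage in order (joined points) and in macrophage-like and Leydig-like cells (squares), after thinning every cell to 2000 UMIs, with exact binomial 95% intervals as bars. Rsph1 reaches 97.5% in the transition stage with little X-linked RNA, while Dnah17 and Tekt2 stay at or below 2.0% until the most advanced stage.

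Other genes of the tail were set beside these from lists of 132 further genes. Of 59 measured genes for other axonemal proteins, 52 were at least 2-fold higher in the most advanced cells than in spermatogonia and 2 were lower (over all genes, 19.8% and 44.3%). Wdr63, an inner arm intermediate chain, was 89.9-fold higher (49.5 to 182) and Cfap126 57.6-fold (34.3 to 104), Mns1 had the highest level with 487 CPM, and Dnah11 went from 2.97 CPM in spermatogonia to 1 UMI, 0.26 CPM. Of 10 measured sheath and fibre genes, 9 were higher, with Fsip2 at 59.0-fold (45.3 to 78.3) and Odf4 at 51.4-fold (32.0 to 88.1), Cyct, the testis cytochrome c grouped here with tail proteins, was highest at 849 CPM, and Septin4, listed as Sept4, went from 3.46 to 1.32 CPM. Of 17 dynein arm assembly factors, 12 were higher and none lower, with Lrrc6 at 70.2-fold (42.6 to 124), Zmynd10 at 65.9-fold (46.9 to 95.4) and Cfap298 the highest at 690 CPM. Of 25 intraflagellar transport genes, 20 were higher, but with smaller ratios: the largest were Dync2li1 at 11.5-fold (9.38 to 14.1) and Ift22 at 11.4-fold (9.48 to 13.8), Ift74 had the highest level at 486 CPM, and Kif17, a transport motor, went from 13.8 to 1.06 CPM.

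Of 13 measured regulators of cilia and spermatogenesis, 9 were higher in the most advanced cells than in spermatogonia and 3 were lower, against 19.8% and 44.3% of all genes. Mybl1, Tcfl5 and Tbpl1 of this list are also markers used to name pachytene clusters, and Ovol1 is a late spermatocyte marker. Their levels are therefore not independent of the stage names. Mybl1, a transcription factor of pachytene cells, was 10.4-fold higher (8.66 to 12.5), and among the RFX factors that bind the X-box Rfx4 was 10.4-fold (8.03 to 13.6) and Rfx2 9.51-fold higher (7.84 to 11.6). Rfx1 went from 8.44 to 1.85 CPM, Rfx3 from 82.5 to 47.4 CPM, and Tcfl5 had the highest level with 573 CPM. Rfx3 did not fall steadily between these end points, as it was at least 2-fold above spermatogonia in Dmc1-high early prophase cells. Foxj1, the main regulator of motile cilia elsewhere in the body, was at 0.88 CPM in spermatogonia, 10.9 CPM in earlier and 4.50 CPM in the most advanced pachytene cells. Between the pachytene stages, 14 of 55 other axonemal genes, 3 of 8 sheath genes, 3 of 17 assembly factors, 1 of 24 transport genes and 1 of 12 regulators were at least 2-fold higher. Against 14.6% of all genes, the assembly factors were near the background and the transport genes and regulators below it.

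Outside the germ line, no named cell type had a summed level above the 1559 CPM of the Zfy2-high stage, though 1 interval included it. The summed level was 288 to 752 CPM in Leydig-like, macrophage-like, peritubular, stromal, endothelial and lymphocyte-like cells, and 1402 CPM in Sertoli-like cells, whose median depth was 1381.5 UMIs. A group of 9 cells named from rete testis, efferent duct and ciliated cell markers had 1323 CPM from 63 UMIs. Its interval, 1017 to 1693 CPM, included the level of the Zfy2-high stage. In this group Cfap44 was at 147 CPM and Rsph4a at 42.0 CPM, the latter above every germ stage from 2 UMIs. In the most advanced pachytene cells the same ciliated cell markers summed to 88.7 CPM with Krt18 at 0, against 233 CPM in undifferentiated spermatogonia, so their sum was lower there. Foxj1, which is on that list, was higher in both pachytene stages than in spermatogonia, as given above.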

How the data were processed

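RNA of testis cells was counted in 1 library per genotype and age, made with a droplet 3' kit. The values deposited by the authors are UMI counts for every gene in every barcode, not normalised, and per the submitters' processing notes Cell Ranger 7.1.0 and STAR were used with the build mm10. Whether intronic reads were counted, the annotation and how barcodes were called as cells are not given in the sources used here. No barcode had under 500 UMIs, and this library shared 45 to 81 barcodes with each of the other 3.

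Barcodes with fewer than 500 genes, fewer than 1000 UMIs or over 10% mitochondrial UMIs were dropped, leaving 8121 of 15306, and 265 doublets called by Scrublet in scanpy 1.11.5 (3.26%) were removed. Clustering did not use the 41 genes, the 132 genes of the other lists, or genes of the X, Y and mitochondrial chromosomes (1991 genes together). It used 3000 variable genes, 30 components, 15 neighbours and Leiden resolution 1 (leidenalg 0.10.2, igraph 0.11.9) and gave 22 clusters. Genes that vary with the 41 were not left out. Some genes of the other lists still served as markers for naming: Mybl1, Tcfl5 and Tbpl1 for pachytene and Ovol1 for late spermatocytes. Foxj1 and Mcidas so served for ciliated cells, and Gapdhs and Oaz3 for elongating spermatids. Each cluster was named for the marker list with the best mean score, if this was 0.5 or more and 3 or more of its markers were detected. The 1 cluster left unnamed had a median depth under the overall median divided by 3 and none of its best list's markers among its 10 leading genes. Names rest on rebuilt clusters.

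UMIs of all cells in a class were added up and scaled to CPM, with 95% Poisson intervals. Intervals of ratios are exact conditional binomial ones, those of shares are Clopper-Pearson ones, a count of 0 was set to 3 counts, and a ratio needed 20 UMIs over both classes. Free RNA was not subtracted in the values above. In an alternative with free RNA subtracted, all 35 ratios over spermatogonia kept their direction and 23 lay within their main interval. Between the pachytene stages all 33 lay within it. Gene positions are from GENCODE M21, whose identifiers matched 32158 of the 32285 listed genes. Ratios were checked on counts simulated from a known answer. The scripts ran under Python 3.11.15 with scipy 1.17.1, numpy 2.4.6, pandas 2.3.3, matplotlib 3.10.9 and scikit-learn 1.9.0.

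The 41 genes, the lists and the markers were chosen with earlier results of these data known. All 41 genes are accounted for, and of each other list the rule named the 2 largest ratios upward, the largest downward and the highest level. Rfx2, Rfx3, Foxj1 and the stage markers were chosen after their values were seen.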

Additional observations from a re-analysis of the deposited data

Results flagged for a closer look

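A cluster of 117 shallow cells stayed unnamed, with a median of 1286 UMIs, and was used in no comparison. It held 5631 CPM of the 41 sperm tail genes (5322 to 5954), above the 448 CPM of macrophage-like and the 288 CPM of Leydig-like cells, which is why it is listed here. Its profile was not that of the pachytene stages at a lower level. Spag16 was at 879 CPM, 1.61-fold its level in the most advanced pachytene cells (1.38 to 1.86), Hydin at 182 CPM, 2.35-fold (1.64 to 3.28), and Spag17 at 574 CPM, 1.45-fold (1.20 to 1.74). Rsph1 at 770 CPM and Meig1 at 579 CPM were instead at 0.16 (0.14 to 0.19) and 0.15 (0.12 to 0.18) of their level there, and Tekt1 was at 0.05 (0.01 to 0.16). Spag16, Hydin and Spag17 span 898, 343 and 258 kb of the genome, and Rsph1, Meig1 and Tekt1 span 22.4, 13.6 and 17.7 kb. Genes of middle span did not sort by it: Spag6l (76.4 kb) was at 1.72 and Cfap69 (85.0 kb) at 2.17, but Dnah17 (109 kb) was at 0.39 (0.19 to 0.73), Dnah1 (63.5 kb) at 0.34 (0.09 to 0.89) and Drc1 (85.3 kb) had 0 UMIs. The part of gene span or of shallow depth in these values was not tested.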

How the results depend on the processing

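No paired analysis was possible because each group had 1 library. Over the 13 alternatives the median log2 ratio of the measured genes, most advanced pachytene over spermatogonium, ranged from 3.72 to 4.64, and 32 genes 2-fold higher became 21 with cells thinned to 2000 UMIs, where 22 were measured. The 14 genes 2-fold higher between the pachytene stages became 3 under thinning, where 19 were measured, and were 11 to 21 under 10 other settings. This count had no value at resolution 0.5 or with 2000 variable genes, which left no earlier pachytene class. The 14 genes first at 50% of their highest level in the last stage became 28 at resolution 0.5 and 26 with 2000 variable genes. They became 5 under thinning, where the same minimum applied to fewer UMIs. The summed level of 14653 CPM was 14496 with a minimum of 200 genes and 500 UMIs, 13284 at resolution 0.5, 13313 with 2000 variable genes, 13438 with equal weight for each cell, 16174 without mitochondrial and ribosomal protein genes and 13468 under thinning. Counts and the summed level have no sign to reverse, and the median log2 ratio stayed positive. Ratios of single genes could change direction, and some did. Between the pachytene stages, 15 of 19 kept their direction under thinning, with 5 within their main interval. With up to 20% mitochondrial UMIs, 30 of 33 did so, with 17 within it, and at resolution 2 all 33 did. Over spermatogonia, 21 of 22 kept their direction under thinning, with 10 within their main interval. The count of genes higher in earlier pachytene than in early prophase stayed between 17 and 32. Depth limits the low genes: 20 UMIs over 2 classes give intervals several-fold wide, and genes with fewer were left without a ratio.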
